A study of Mus musculus with 30 samples.

Results

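Metallothioneins and iron handling genes were followed through 10 members: Mt1, Mt2, Mt3, Fth1, Ftl1, Tfrc, Cp, Slc40a1, Cybrd1 and Selenop. They were taken by symbol, and all 10 were found among the 14997 genes of the captured libraries and the 26005 genes of the spheres (Selenop under its older symbol Sepp1 in the captured table). The members were named with their levels in these same libraries known, so their values and differences are given as description, with no test. Polyadenylated RNA was sequenced from 30 mouse libraries. Of these, 20 came from midbrain floor plate taken by laser capture microdissection, with 4 libraries from embryonic day 11 (E11), 5 from E13, 5 from E18 and 6 from postnatal day 70 (P70). All 20 carried the genotype Lmx1aCreERT2; R26TRAPC, in which the inducible recombinase is driven from the floor plate gene Lmx1a. The other 10 were cultured spheres of adult origin, in 5 libraries titled MB and 5 titled FB. According to the series design, spheres were grown from the midbrain aqueduct and the lateral ventricle; the labels spell out neither abbreviation and give no genotype for the spheres.

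Metallothioneins are small cysteine-rich proteins that bind zinc and copper. Their genes are induced by zinc through the factor Mtf1 and by glucocorticoids and oxidants, and in brain Mt1 and Mt2 are known from glia and ependyma and Mt3 from astrocytes and neurons. Cells take up iron bound to transferrin through the transferrin receptor, store it in shells built of ferritin heavy and light chains, and release it through ferroportin. Iron regulatory proteins adjust this balance after transcription: in iron-poor cells they bind hairpins in messenger RNA, which blocks translation of ferritin and ferroportin and stabilises the transferrin receptor message.

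Captured levels are given in the deposited values, called units here, which behave as reads scaled to transcript length and library size (RPKM). A gene whose mean at an age was under 1 unit is not listed at that age. Whole reads recovered for 11710 genes (78.1%) summed to 2255547 to 3456771 per library at the embryonic ages and 965738 to 2193558 at P70, where weakly expressed genes therefore have the largest counting error. The spheres had 6327198 to 9291311 counts per library, and their levels are CPM, counts scaled to the library size. Of 8 floor plate markers, 8 were listed at E11, E13 and E18, but 6 at P70, where Shh was not listed. Their summed level was 54.5 to 121 units at P70, against 430.0 to 602 units at E18. The summed level of 8 ependymal markers was 15384 to 23464 units at P70, against 6787 to 9942 units at E18. E18 replicate 3 had a sum of astrocyte markers of 665 units, against 902 to 1099 units in the other E18 libraries. P70 replicate 6 had the highest sum of endothelial and mural markers, 207 units. No label ties libraries to separate animals or cultures, so the p-values below measure only the spread between these samples. In bulk RNA, fewer cells of a type and less RNA per cell cannot be told apart.

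The hairpins bound by iron regulatory proteins are shown because they divide the members by how iron acts on their messages. Each was read from the GENCODE vM21 transcripts (GRCm38) on the RNA strand, by searching for a C, any 5 bases, the loop CAGTGN and 5 bases that pair with the first 5, with G-T pairs allowed. Fth1, Ftl1 and Slc40a1 each held 1 in the 5′ UTR, Tfrc held 4 in the 3′ UTR, and the other 6 members held 0. Such a core was found in 237 of 21291 protein-coding transcripts (1.11%), with 1 transcript taken per gene. The lines below give the hairpins with 6 flanking bases at each end of the core; capitals mark the loop.
Fth1 5′ UTR, chr19:9982732-9982760, plus strand: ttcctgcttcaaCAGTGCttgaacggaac
Ftl1 5′ UTR, chr7:45459779-45459807, minus strand: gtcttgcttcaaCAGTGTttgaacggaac
Slc40a1 5′ UTR, chr1:45925465-45925493, minus strand: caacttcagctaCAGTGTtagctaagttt
Tfrc 3′ UTR, chr16:32631219-32631247, plus strand: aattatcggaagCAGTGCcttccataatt
Tfrc 3′ UTR, chr16:32631598-32631626, plus strand: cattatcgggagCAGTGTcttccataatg
Tfrc 3′ UTR, chr16:32631663-32631691, plus strand: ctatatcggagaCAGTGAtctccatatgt
Tfrc 3′ UTR, chr16:32631710-32631738, plus strand: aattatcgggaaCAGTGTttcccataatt

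Mt3, Mt2 and Mt1 lie next to each other on chromosome 8 (GRCm38), all on the plus strand, at 94152607 to 94154146, 94172664 to 94173568 and 94179082 to 94180327. The core of the metal response element, the site of Mtf1, was searched as TGCACNC or TGCGCNC on both strands. In the 250 bases before the RefSeq start (GRCm38.p6), Mt1 held 1 core, Mt2 held 3, Mt3 held 0 and Tfrc held 2 that overlap each other on opposite strands. At least 1 core was found for 23.8% of 27025 genes, and at least 3 for 1.46%. The annotated transcripts of the 3 metallothioneins begin ahead of a TATAAA, which starts at transcript base 129 in Mt1, 90 in Mt2 and 107 in Mt3, so the first 150 transcript bases were searched too. They held 4 cores in Mt1, 3 in Mt2 and 3 in Mt3, and at least 3 were found in 0.471% of 21227 transcripts. The window before the Mt2 start and a stretch of 30 bases from each transcript are shown, with the cores on either strand in capitals.
Mt2 upstream, chr8:94172368-94172617, plus strand: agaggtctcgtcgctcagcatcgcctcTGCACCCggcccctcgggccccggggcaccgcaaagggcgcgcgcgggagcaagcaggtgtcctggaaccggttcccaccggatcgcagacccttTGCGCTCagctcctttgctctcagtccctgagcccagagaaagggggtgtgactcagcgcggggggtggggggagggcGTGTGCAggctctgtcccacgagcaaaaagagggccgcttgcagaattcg
Mt1, chr8:94179088-94179117, plus strand: ctcTGCACTCcgcccgaaaagTGCGCTCgg
Mt2, chr8:94172674-94172703, plus strand: gcGTGTGCAggcggcgggggcGCGTGCAtg
Mt3, chr8:94152622-94152651, plus strand: tcgggacagcagTGCACACacacggagagc

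Mt1 and Mt2, the inducible metallothioneins, were low at E11 and E13 and high at E18 and P70. Mt1 measured 138, 201, 167 and 83.0 units in the E11 libraries and 116, 64.5, 72.2, 59.7 and 73.7 units in the E13 libraries. At E18 it measured 2009.6, 3213, 1342, 2763 and 2010.5 units, and at P70 its lowest, median and highest values were 4392, 8221 and 13326 units. The lowest P70 library lay above every E18 library and the lowest E18 library above every E13 library, whereas E13 and E11 overlapped. The mean was 77.2 ± 22.3 units at E13 (SD, n = 5), against 147 ± 49.9 at E11 (n = 4), a log2 difference of -0.89 (SE 0.30). It was 2268 ± 729 units at E18 (n = 5), 29.4-fold the E13 mean, and 8383 ± 3133 at P70 (n = 6), 3.70-fold the E18 mean. The log2 differences were 4.84 (SE 0.28) for E18 minus E13 and 1.86 (SE 0.27) for P70 minus E18.

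Mt2 had the same order of ages at lower levels. It measured 58.8, 65.96, 52.3 and 30.2 units at E11 and 20.7, 16.2, 20.3, 27.4 and 9.79 units at E13. At E18 it measured 442, 343, 85.9, 258 and 227 units, and at P70 its lowest, median and highest values were 911, 1721 and 3040.2 units. No 2 neighbouring ages overlapped: Mt2 was lower in every E13 library than in any E11 library, higher at E18 than at E13 and higher at P70 than at E18. The log2 differences were -1.42 (SE 0.40) for E13 minus E11, 3.66 (SE 0.37) for E18 minus E13 and 2.81 (SE 0.36) for P70 minus E18.

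Mt3, the neural metallothionein also known as growth inhibitory factor, was already apart at E13. It measured 15.6, 13.1, 7.78 and 10.4 units at E11, and 851, 471, 326, 179.7 and 560.0 units at E13. At E18 it measured 4428, 7902, 1223, 6821 and 6029.9 units, and at P70 its lowest, median and highest values were 11387, 13867 and 19446 units. The ages did not overlap in any neighbouring pair, and E18 replicate 3 was the closest to the E13 range. The mean of 478 ± 254 units at E13 was 40.8-fold that at E11, 11.7 ± 3.37, with a log2 difference of 5.09 (SE 0.43). The later log2 differences were 3.40 (SE 0.40) for E18 minus E13, with means of 5281 ± 2598 and 478 ± 254 units, and 1.66 (SE 0.39) for P70 minus E18, with means of 14295 ± 2718 and 5281 ± 2598 units. Astrocyte marker sums were higher at each later age. The summed level of those listed was 47.4 to 83.9 units at E11 (5 of 8 listed), 229 to 364 at E13 (6 of 8), 665 to 1099 at E18 and 1181 to 1552 at P70 (8 of 8 at both). These markers did not move as one. Aldh1l1 measured 57.4 to 136 units at E13, against 2.65 to 4.07 at E11, whereas Gja1 measured 5.97 to 13.7 units, against 18.6 to 37.0. S100b measured 510.3 to 765 units at P70, against 13.2 to 59.1 at E18, and Gfap 54.9 to 191 units, against 0.224 to 5.6005. In the other direction, Slc1a3 measured 60.1 to 135 units at P70, against 312 to 609 at E18, and Aldh1l1 4.86 to 26.1 units, against 61.3 to 88.4. Ependymal markers summed to 22.5 to 85.9, 48.2 to 92.8, 6787 to 9942 and 15384 to 23464 units at those ages, with 6 of 8 listed at E11 and E13 and 8 of 8 later. Neuron marker sums spanned 312 to 842 units in E11 libraries (7 of 8 listed), then 927 to 2860 in E13, 741 to 1942 in E18 and 376 to 674 in P70 libraries (8 of 8 at each of these ages). The part of these cell types in the metallothionein levels was not tested.

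**Figure D1:**
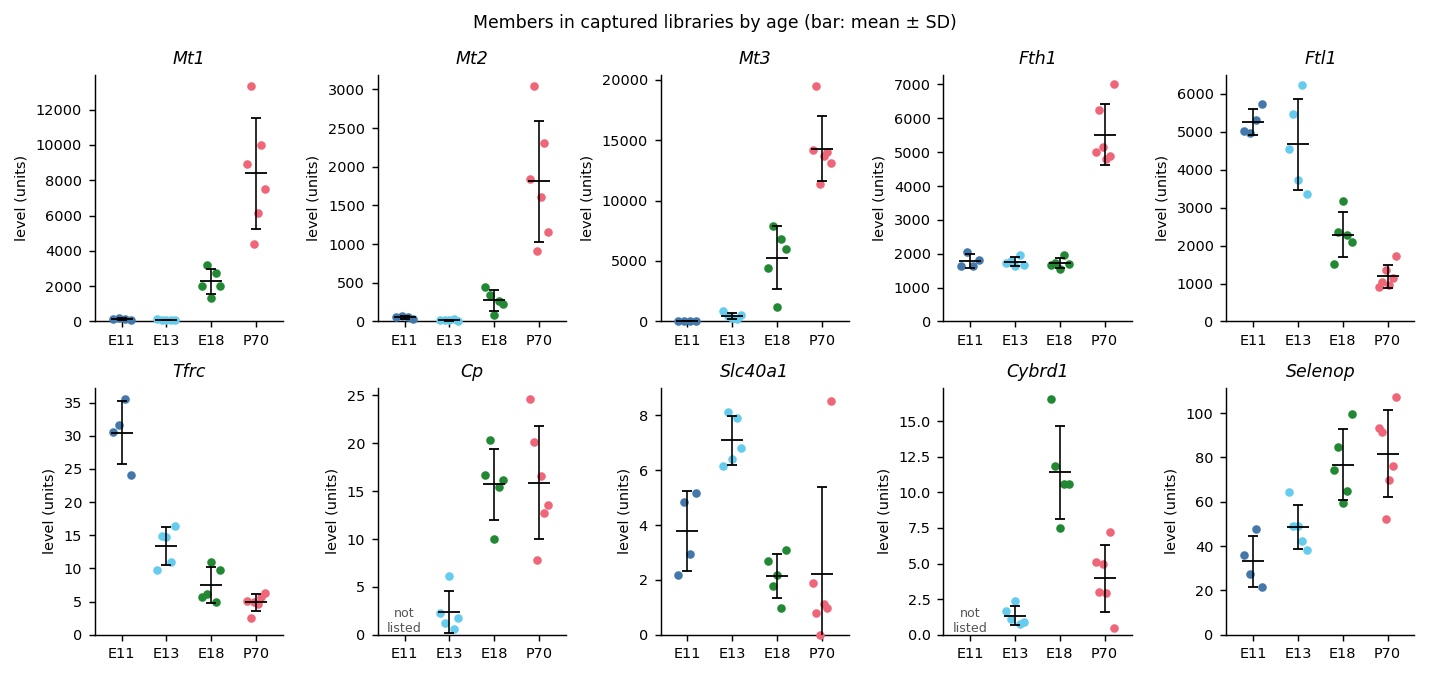
Levels of the 10 members in captured libraries (vertical axes, units, from 0) by age; points are libraries, and the horizontal bar with whiskers is the mean ± SD (E11, n = 4; E13 and E18, n = 5 each; P70, n = 6). Mt1, Mt2, Mt3 and Fth1 are highest at P70 and Tfrc at E11, while Ftl1 averages highest at E11 and Slc40a1 at E13. Cp and Cybrd1 are not listed at E11, and a whisker that would pass below 0 is cut there.

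The metallothionein reads were mainly Mt1 at E11 and mainly Mt3 at the later ages. The mean sum of the 3 genes was 211 units in E11 libraries, 574 units in E13, 7820 units in E18 and 24488 units in P70 libraries. Of the reads on the 3 genes, Mt3 took 5.89% ± 2.28 in E11 libraries, 80.6% ± 8.43 in E13, 64.1% ± 10.6 in E18 and 59.1% ± 5.82 in P70 libraries (mean ± SD). The highest Mt3 share at E11 was 8.31% and the lowest at any later age was 45.9%, in E18 replicate 3, so E11 lay apart from every other age. Among E13, E18 and P70 the ranges of this share overlapped for E13 and E18 (67.0% to 86.9% and 45.9% to 72.7%) and for E18 and P70, where it was 53.0% to 68.0%. Mt2 over Mt1, both in units, averaged 0.358 in E11, 0.260 in E13, 0.119 in E18 and 0.215 in P70 libraries.

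**Figure D2:**
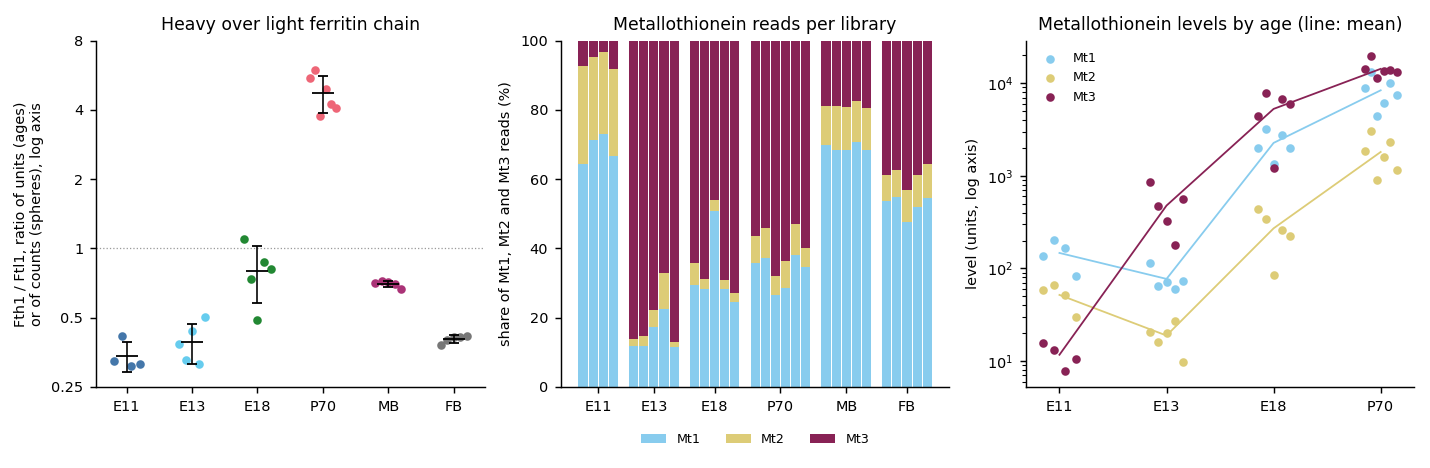
Left, Fth1 over Ftl1 in each library (log axis; ratio of units for ages, of counts for spheres) with mean ± SD; middle, the share of each metallothionein among the reads on Mt1, Mt2 and Mt3, 1 bar per library; right, metallothionein levels by age (units, log axis) with lines through the means. In units, the ferritin ratio is below 1 in every E11 and E13 library and 3.78 or more in every P70 library. Ratios of units and ratios of counts are on different scales. Mt3 takes under 10% of metallothionein reads at E11 alone.

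Of the 2 ferritin chains, the light one had the higher level in units at E11 and E13 and the heavy one at P70. The order of recovered reads differed from that of units in some libraries. In E11 replicate 1, 6705 reads stood behind 1634 units of Fth1, and 9998 reads behind 5026 units of Ftl1. A read thus weighed more for Ftl1, although the annotated transcripts are close in length (929 bases for Fth1, 968 for Ftl1). The reason was not tested, and the ratio and sum of the chains in units rest on these weights. The heavy chain had more reads in E13 replicate 5 (5720 against 5526) and in every E18 library. The closest E18 library was replicate 3, with 6819 against 6797 reads. A ratio of units is therefore not on the scale of the ratio of counts given below for spheres. Fth1 encodes the heavy chain, which oxidises ferrous iron, and lies on chromosome 19 (GRCm38) at 9980598 to 9985098 on the plus strand. It measured 1634, 2063, 1644 and 1809 units at E11, 1739, 1786, 1638, 1967 and 1679.6 units at E13, and 1669, 1735, 1550.1, 1978 and 1699.9 units at E18. Its lowest, median and highest values at P70 were 4789, 5079 and 7020.2 units. The 3 embryonic ages overlapped throughout, and every P70 library lay above every E18 library. The mean was 5516 ± 906 units at P70 (n = 6), against 1726 ± 157 at E18 (n = 5), 3.20-fold with a log2 difference of 1.66 (SE 0.12).

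Ftl1 encodes the light chain, which aids formation of the iron core, and lies on chromosome 7 at 45457944 to 45459884 on the minus strand. It measured 5026, 4976, 5321 and 5732 units at E11 and 4542, 5468, 3727, 6242 and 3348 units at E13. At E18 it measured 1522, 2361, 3188, 2276 and 2088 units, and at P70 its lowest, median and highest values were 906, 1102 and 1716 units. Its level was lower in every E18 library than in any E13 library, while E13 overlapped E11 and P70 overlapped E18. The log2 difference was -1.03 (SE 0.20) for E18 minus E13, with means of 2287 ± 600.3 and 4665 ± 1200.35 units, and -0.93 (SE 0.19) for P70 minus E18. The sum of both chains averaged 7051 units in E11, 6427 in E13, 4013 in E18 and 6709 in P70 libraries. The ratio of Fth1 to Ftl1 averaged 0.341 ± 0.0495 in E11, 0.393 ± 0.0784 in E13, 0.800 ± 0.221 in E18 and 4.76 ± 0.866 in P70 libraries, and its range at P70, 3.78 to 5.96, lay above that at E18, 0.486 to 1.10. Both chains have gene copies by name, so reads may have been shared with them: in spheres Ftl1-ps1 had 106 to 205 counts per library and Ftl1-ps2, Ftl2-ps, Fth-ps2 and Fth-ps3 had 0 to 9, and these copies are not listed in the captured table.

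The summed markers of iron-rich cell types were higher at P70 for oligodendrocytes and overlapped for microglia. The oligodendrocyte markers summed to 248 to 780 units at P70 (8 of 8 listed), against 38.3 to 60.9 units at E18 (4 of 8 listed), and those of microglia and macrophages to 262 to 455 units (9 of 10), against 65.6 to 265 units (8 of 10). Their part in the Fth1 and Ftl1 levels was not tested.

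Tfrc, the transferrin receptor that brings iron into cells, had its highest mean at E11 and a lower mean at each later age. The gene lies on chromosome 16 at 32608920 to 32632794 on the plus strand. It measured 30.6, 31.7, 35.6 and 24.1 units at E11 and 9.69, 14.9, 14.7, 11.0 and 16.5 units at E13. At E18 it measured 5.65, 6.19, 11.0, 4.96 and 9.70 units, and at P70 its lowest, median and highest values were 2.54, 4.99 and 6.36 units. Every E13 library lay below every E11 library, and the later neighbouring ages overlapped. The mean was 13.4 ± 2.87 units at E13 (n = 5), against 30.5 ± 4.78 at E11 (n = 4), a log2 difference of -1.14 (SE 0.25). The later log2 differences were -0.79 (SE 0.23) for E18 minus E13 and -0.51 (SE 0.22) for P70 minus E18. Between 37 and 104 reads stood behind each P70 value. Red cell precursors carry abundant transferrin receptor, and erythroid markers moved with age as well: those listed summed to 8096 to 23406 units at E11 (5 of 9 listed), 3614 to 13456 at E13 (4 of 9), 1.62 to 6.85 at E18 (2 of 9) and 7.12 to 293 at P70 (3 of 9). Their part in the Tfrc level was not tested.

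Cybrd1, a membrane cytochrome b that reduces ferric iron ahead of uptake, was highest at E18. The gene lies on chromosome 2 at 71117923 to 71142926 on the plus strand and was not listed at E11. It measured 1.65, 1.07, 2.35, 0.728 and 0.923 units at E13, and 16.5, 11.8, 7.46, 10.6 and 10.6 units at E18. At P70 its lowest, median and highest values were 0.475, 3.97 and 7.25 units, the lowest in replicate 6, where 8 reads were recovered. E18 lay above E13 and above P70 without overlap, with log2 differences of 2.41 (SE 0.37) for E18 minus E13 and -1.46 (SE 0.35) for P70 minus E18. With a pseudocount of 0.1 in place of 1 the first of these was 3.06, since the log2(value + 1) scale understates changes of low genes.

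Slc40a1, ferroportin, the cell's iron exporter, was a low gene with its highest mean at E13. It lies on chromosome 1 at 45908068 to 45926523 on the minus strand. It measured 2.16, 4.85, 2.93 and 5.17 units at E11, 6.17, 8.13, 6.42, 7.91 and 6.83 units at E13, and 2.69, 1.76, 2.197, 0.979 and 3.09 units at E18. E13 lay above E11 and E18 without overlap. The log2 differences were 0.81 (SE 0.43) for E13 minus E11, with means of 7.09 ± 0.886 and 3.78 ± 1.46 units, and -1.40 (SE 0.40) for E18 minus E13, with means of 2.14 ± 0.820 and 7.09 ± 0.886 units. At P70 the values were 0 to 1.90 units in 5 libraries and 8.53 units in replicate 6, from 96 reads against 0 to 18 in the others. That library set the P70 mean of 2.22 ± 3.15 units, and P70 overlapped E18. The log2 difference of P70 minus E18 was -0.32 (SE 0.39) with it and -0.72 (SE 0.28) without it. Replicate 6 was also the library with the highest endothelial and mural sum (207 units, against 51.5 to 90.8 in the other P70 libraries, over 5 of 10 markers), and the part of those cells was not tested.

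Cp, ceruloplasmin, the copper-carrying ferroxidase that works beside ferroportin, was higher from E18 on. It lies on chromosome 3 at 19957054 to 20009145 on the plus strand and was not listed at E11. It measured 2.298, 1.27, 6.18, 0.589 and 1.72 units at E13, and 16.7, 20.3, 9.997, 15.4 and 16.2 units at E18. At P70 its lowest, median and highest values were 7.76, 15.1 and 24.6 units. E18 lay above E13 without overlap, with a log2 difference of 2.46 (SE 0.35), and P70 overlapped E18, with means of 15.9 ± 5.92 and 15.7 ± 3.71 units.

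Selenop encodes selenoprotein P, a secreted carrier of selenium, and showed no gap between neighbouring ages. The gene lies on chromosome 15 at 3268547 to 3280508 on the plus strand. It averaged 33.1 ± 11.4 units in E11, 48.7 ± 9.94 in E13, 76.6 ± 16.0 in E18 and 81.6 ± 19.6 in P70 libraries, and each pair of neighbouring ages overlapped. The log2 differences were 0.58 (SE 0.23) for E13 minus E11, 0.64 (SE 0.22) for E18 minus E13 and 0.08 (SE 0.21) for P70 minus E18.

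Groups without overlap were common among all genes, and the members' counts are given only beside that background. For E13 against E11, 4 of the 8 members listed at both ages did not overlap, where 28.4% of all genes did not. For E18 against E13 the count was 7 of 10, where the share over all genes was 37.8%, and for P70 against E18 it was 5 of 10, where the share was 20.9%. The median log2 difference of the members was -0.11, 1.52 and 0.02 in these comparisons, beside -0.04, -0.04 and -0.14 for all genes tested. These counts carry no weight of their own, because the members were named for such differences.

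The wider machinery was read from lists of 126 genes for iron, heme, zinc, copper and selenium handling, chosen by known function with results of these data known. From here on, differences were tested with limma across all genes, with adjusted p under 0.05 as the threshold. For E13 against E11, 3 list genes rose and 19 fell of 99 tested (22.2%), beside 20.8% of all genes (9.41% rises and 11.4% falls). With only these 2 ages in the fit 10 list genes rose and 29 fell, and with a weight per library 15 rose and 28 fell. Of 13 genes for mitochondrial iron and iron-sulfur clusters 5 passed, each of them a fall. Slc25a37, the mitochondrial iron importer mitoferrin 1, measured 3.06 ± 0.535 units at E13 and 12.9 ± 3.72 at E11, a log2 difference of -1.75 (SE 0.36, limma adjusted p = 0.00129). Of 6 iron uptake genes 2 fell and the other 4 did not pass; the falls included Steap1 of the STEAP metalloreductase family, with 11.1 ± 5.21 units at E13 and 35.3 ± 9.72 at E11 (log2 difference -1.68, SE 0.35, limma adjusted p = 0.00175). The erythroid marker sum, mostly Hbb-y, had a lower median at E13 (6249 units, 4 of 9 listed) than at E11 (12279 units, 5 of 9). The ranges of the 2 ages overlapped, as given above, and the part of these cells in the falls was not tested. Among 25 selenium genes 2 rose and 4 fell. Lrp8, a receptor that takes up selenoprotein P, rose to 26.9 ± 4.64 units at E13, against 12.5 ± 1.24 at E11 (limma adjusted p = 0.000557), and Gpx3, the secreted glutathione peroxidase, fell to 9.85 ± 2.80 units, against 56.6 ± 28.5 (limma adjusted p = 6.2e-05). The iron export and hepcidin list had 2 falls among 4 tested genes, Bmp6 and the ferroxidase gene Heph, at limma adjusted p = 0.0149 and 0.0251. Both calls were lost when single libraries were left out, Bmp6 without E11 replicate 4 and Heph without E11 replicate 1, 2 or 3 or E13 replicate 1.

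For E18 against E13, 25 list genes rose and 21 fell of 99 tested (46.5%), beside 47.1% of all genes (22.3% rises and 24.8% falls). Zinc genes had 5 rises and 1 fall among 20 tested. Slc39a12, a zinc importer, measured 62.3 ± 16.96 units at E18 and 12.3 ± 3.94 at E13 (log2 difference 2.26, SE 0.24, limma adjusted p = 1.28e-07). Slc39a1, another importer, measured 282 ± 105 and 51.8 ± 26.5 units at these ages (limma adjusted p = 3.89e-06), and Slc30a10, an exporter best known for manganese, 9.13 ± 1.27 and 1.58 ± 0.689 units (limma adjusted p = 1.38e-06). Of 9 copper genes 4 rose and 4 fell. The superoxide dismutase gene Sod1 rose to 724 ± 79.7 units at E18, against 358 ± 121 at E13 (limma adjusted p = 8.18e-05), and Cox17, a copper chaperone for cytochrome oxidase, fell to 192 ± 35.2 units, against 482 ± 54.8 (limma adjusted p = 5.97e-07). Pcbp1, a chaperone that delivers iron to ferritin, fell to 112 ± 25.2 units at E18, against 268 ± 50.1 at E13 (limma adjusted p = 5.57e-05). Of the iron sensing genes, Aco1 differed by -0.37 (SE 0.23, limma adjusted p = 0.192), Ireb2 by -0.17 (SE 0.22, limma adjusted p = 0.554) and Fbxl5 by -0.30 (SE 0.23, limma adjusted p = 0.313).

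For P70 against E18, 18 list genes rose and 23 fell of 102 tested (40.2%), beside 40.8% of all genes (16.9% rises and 24.0% falls). This split depends on scaling: over all genes the deposited scale places P70 lower by 0.176 on the log2 scale than a median-centred one does, under which 25 list genes rose and 15 fell. Over all genes 41.3% of calls were rises on the deposited scale and 56.4% after centring. Every list gene named here for P70 passed under both. Trf, transferrin, the ligand of the Tfrc product, rose to 67.3 ± 33.7 units at P70, against 5.61 ± 1.40 at E18 (log2 difference 3.28, SE 0.24, limma adjusted p = 1.06e-09). Transferrin is an oligodendrocyte product in brain, and those markers were also higher at P70, as given above; their part was not tested. Of the iron sensors, Aco1 and Ireb2, which encode the iron regulatory proteins, both fell: Aco1 measured 5.85 ± 2.74 units at P70 and 16.0 ± 3.05 at E18 (limma adjusted p = 3.05e-05), and Ireb2 measured 6.92 ± 2.199 and 15.0 ± 1.41 units (limma adjusted p = 0.000433). Slc39a4, a zinc importer known from the gut, rose to 33.6 ± 12.8 units at P70, against 1.56 ± 1.32 at E18 (log2 difference 3.81, SE 0.32, limma adjusted p = 3.44e-07), while 6 of 20 zinc genes fell, among them Slc39a6 and Slc39a10. The iron-sulfur cluster genes Bola3 and Iscu rose, to 345 ± 109 and 254 ± 76.3 units at P70, against 122 ± 19.3 and 115 ± 34.2 at E18 (limma adjusted p = 7.03e-06 and 0.000823). Cox17 and Sod1 rose as well (limma adjusted p = 2.14e-07 and 1.07e-05), and the copper importer gene Slc31a1 fell to 18.4 ± 4.86 units, against 44.7 ± 8.68 (limma adjusted p = 3.2e-05).

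**Figure D3:**
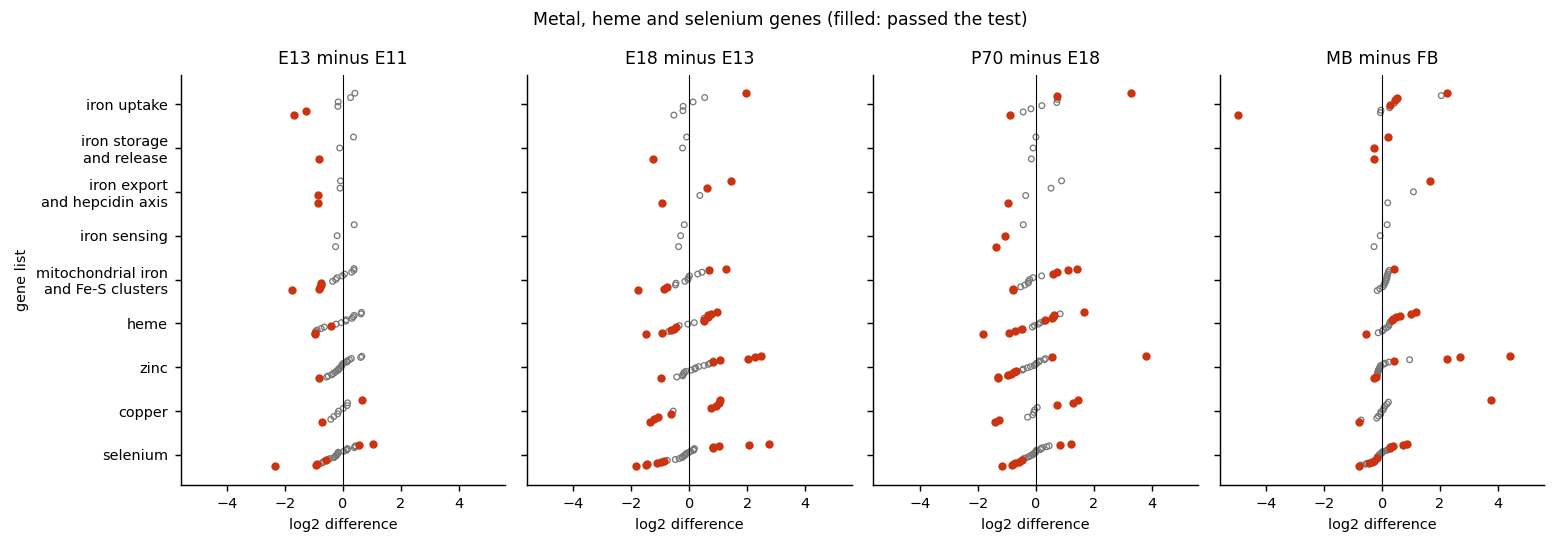
Log2 difference (horizontal axes) of each tested gene of the 9 lists in the 4 comparisons, named above each panel as the first group minus the second; filled points passed an adjusted p of 0.05 (limma for ages, edgeR for spheres) and open points did not. Calls lie mainly on the left for E13 minus E11 and on both sides for the later ages.

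In spheres, most members differed between MB and FB by more than their spread. Mt1 measured 361, 388, 412, 362 and 360.4 CPM in MB spheres and 138, 147, 127, 148 and 154 CPM in FB spheres. Mt2 measured 58.4, 71.7, 74.8, 61.2 and 63.2 CPM in MB spheres and 20.01, 20.5, 24.6, 26.5 and 27.4 CPM in FB spheres. Both were higher in every MB library, by log2 differences of 1.40 (SE 0.07) and 1.46 (SE 0.13). Mt3 overlapped, with 102 ± 10.3 CPM in MB and 105 ± 7.31 CPM in FB spheres (SD, n = 5 each), a log2 difference of -0.04 (SE 0.09). Mt3 accordingly took 18.7% ± 0.840 of metallothionein reads in MB and 38.7% ± 2.79 in FB spheres.

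Both ferritin chains were higher in MB spheres, and the heavy chain more so. Fth1 measured 2489, 2678, 2471, 2441 and 2429.9 CPM in MB spheres and 1106, 1170.0, 1161, 1142 and 1142 CPM in FB spheres, a log2 difference of 1.13 (SE 0.04). Ftl1 averaged 3559.9 ± 96.2 CPM in MB and 2830.2 ± 85.1 CPM in FB spheres, a log2 difference of 0.33 (SE 0.04). The ratio of their counts was 0.703 ± 0.0208 in MB and 0.405 ± 0.0152 in FB spheres, without overlap.

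Tfrc and Cybrd1 were lower in MB spheres. Tfrc measured 151, 156, 142, 130.4 and 185 CPM in MB spheres and 223, 237, 196, 186 and 195 CPM in FB spheres, a log2 difference of -0.44 (SE 0.09), with the highest MB library just below the lowest FB library. Cybrd1 measured 70.1, 68.0, 70.7, 65.4 and 58.5 CPM in MB spheres and 272, 272, 288, 277 and 274 CPM in FB spheres, a log2 difference of -2.05 (SE 0.07). Cp was higher in every MB library, with 79.2 ± 5.99 CPM in MB and 18.4 ± 4.79 CPM in FB spheres, a log2 difference of 2.11 (SE 0.16). Selenop showed the largest positive difference of the members in spheres, 2.27 (SE 0.08), with 318, 341, 306, 355 and 321 CPM in MB spheres and 77.8, 61.4, 69.2, 72.0 and 59.5 CPM in FB spheres. Slc40a1 was left out by the filter on low counts, with 30, 16, 4, 2 and 9 counts in MB libraries and 9, 1, 14, 4 and 0 counts in FB libraries. Of the 9 members compared, 8 did not overlap, beside 21.2% of all genes, and the members' median log2 difference was 1.13, beside -0.02 for all genes.

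**Figure D4:**
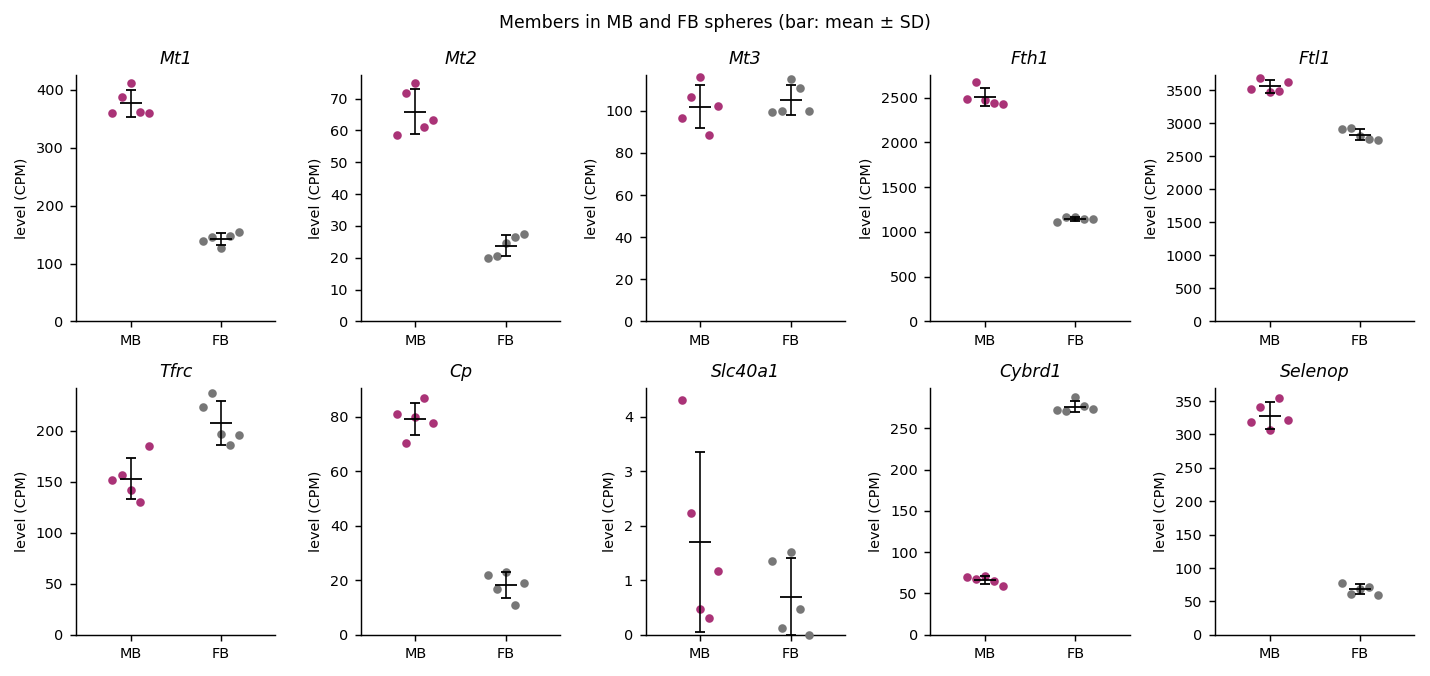
Levels of the 10 members (vertical axes, CPM, from 0) in MB and FB spheres; points are the 5 libraries of each group, and the horizontal bar with whiskers is the mean ± SD. Mt1, Mt2, Fth1, Ftl1, Cp and Selenop are higher in every MB library, Tfrc and Cybrd1 are lower in every MB library, and Mt3 and Slc40a1 overlap; a whisker that would pass below 0 is cut there.

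Of the list genes, tested here with the quasi-likelihood test of edgeR, 22 were higher and 12 lower in MB spheres of 106 tested (32.1%), beside 29.6% of all genes (15.3% higher and 14.3% lower in MB). Sod3, the extracellular copper-zinc superoxide dismutase, measured 114 ± 5.22 CPM in MB and 8.53 ± 3.09 CPM in FB spheres (log2 difference 3.75, SE 0.17, edgeR adjusted p = 2.6e-12). Slc39a12 measured 58.1 ± 13.03 CPM in MB and 12.5 ± 4.26 CPM in FB spheres (log2 difference 2.23, SE 0.20, edgeR adjusted p = 5.73e-08). Of 15 heme genes 6 were higher and 1 lower in MB spheres. Hmox1, which breaks heme down and frees its iron, measured 145 ± 10.5 CPM in MB and 73.1 ± 6.08 CPM in FB spheres (log2 difference 0.99, SE 0.08, edgeR adjusted p = 1.8e-08), and Blvrb, which reduces biliverdin, was 1.18 higher (SE 0.15, edgeR adjusted p = 4.25e-06). Among iron uptake genes 4 of 10 were higher and 1 was lower. Trf measured 745 ± 38.6 CPM in MB and 528 ± 33.6 CPM in FB spheres (edgeR adjusted p = 8.4e-07). The 1 lower gene was Lcn2, lipocalin 2, a carrier of siderophore iron named here after its values were seen, with 0.247 CPM in MB and 8.94 CPM in FB spheres (edgeR adjusted p = 2.67e-06). Hfe, which binds the transferrin receptor, measured 34.5 ± 9.57 CPM in MB and 11.1 ± 3.83 CPM in FB spheres (log2 difference 1.64, SE 0.24, edgeR adjusted p = 2.97e-05). Aco1 differed by -0.07 (SE 0.07, edgeR adjusted p = 0.509) and Ireb2 by -0.28 (SE 0.14, edgeR adjusted p = 0.136) between MB and FB spheres. Of the cell type sums, fibroblast and meningeal markers were at 241 to 269 CPM in MB and 130 to 141 CPM in FB spheres (8 of 8 in both), and oligodendrocyte markers at 2243 to 2880 CPM in MB and 2956 to 3309 CPM in FB spheres (8 of 8 in both). The fibroblast and meningeal sum was mostly Ptgds, with 206 to 212 CPM in MB and 76.4 to 89.7 CPM in FB spheres. Pdgfra overlapped, at 24.02 to 51.9 CPM in MB and 33.6 to 46.5 CPM in FB spheres. Col1a1, Col1a2, Col3a1 and Lum also overlapped. Dcn was lower and Slc6a13 higher in every MB library, both at 5.47 CPM or less in all spheres. Floor plate markers summed to 488 to 603 CPM in MB and 120 to 143 CPM in FB spheres, ependymal markers to 32.2 to 44.6 and 18.7 to 22.7 CPM, and choroid plexus markers to 18.5 to 22.7 and 40.6 to 46.8 CPM (8 of 8 measured in both). The floor plate sum was mostly Spon1, with 430.3 to 546 CPM in MB and 80.5 to 102 CPM in FB spheres, while Lmx1a, Foxa2, Shh, Foxa1 and Corin were at or near 0 in both, at 0 to 1.56 CPM. The choroid plexus markers did not move as one. Ttr, the main choroid plexus product, measured 0 to 0.144 CPM in MB and 31.6 to 40.3 CPM in FB spheres. Otx2 went the other way, with 15.8 to 17.9 CPM in MB and 0.840 to 4.69 CPM in FB spheres. The part of these cell types in the member differences was not tested.

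Among 8530 genes listed at all ages, those with the profile closest to each member over the 20 captured libraries were found by the root mean square distance between log2(value + 1) profiles, each centred on its own mean over the ages. Ftl1 had the closest neighbours, Nme1 at 0.22 and Gars at 0.26, followed by Fth1 with Bola1 at 0.26 and Dnajc4 at 0.28. Tfrc was nearest to Sf3b3 at 0.31 and Hnrnpu at 0.34, and Selenop to Fam126a at 0.31 and Pcbd1 at 0.32. Slc40a1 was nearest to Gdap2 and Ntan1, both at 0.45. Mt1 was nearest to Dnaja4 and Anxa1, both at 0.65, and Mt2 to Mb at 0.72 and Maob at 0.75. Mt3 had the farthest neighbours of these members: Calml4 lay at 0.78 and the next, Clu, at 1.24. Within the members, Ftl1 and Tfrc were the closest pair at 0.52, Mt1 and Mt2 lay 0.74 apart and Fth1 and Ftl1 1.61 apart. The libraries behind these distances differ in depth and cell make-up between ages, and Cp and Cybrd1 had no values at E11 and were left out.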

How the data were processed

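Per the labels' protocols, 1 ng of RNA extracted with an RNeasy micro kit was turned into cDNA by Smart-seq2 and tagmented with Tn5 transposase. These steps mark neither strand nor molecule, so reads of a gene and of its antisense partner look alike. Per the submitters' processing notes the tools included STAR 2.3, Salmon 1.6.0 and DESeq2 1.34.0, and both mm10 and GRCm39 are listed as genomes, without saying which step used which. For the captured libraries the authors deposited normalized values, whose unit no source used here names, and for the spheres whole-number counts per gene. Captured values behave as RPKM, since each gene's low values step by equal amounts; whole reads were recovered for 11710 of 14997 genes within 0.01 reads. Of 15139 lines, 142 with 1 of 11 repeated symbols were left out. All columns matched a sample, with 0 left over.

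Captured values were compared with limma 3.58.1 (R 4.3.3, trend) on log2(value + 1), all 20 libraries in 1 fit, over genes listed at both ages, and sphere counts with the edgeR 4.0.16 quasi-likelihood test, with TMM scaling and the edgeR filter on low counts. Benjamini-Hochberg adjustment ran over every gene tested in a comparison, and adjusted p under 0.05 passed. Groups that do not overlap have every library of 1 group above every library of the other. Sequences came from GENCODE vM21 transcripts and the RefSeq promoter table. The tests were tried on simulated data. The members and the lists were chosen with earlier results of these data known. Named list genes are the up to 3 per list and comparison with the smallest p among those that passed and averaged 5 units or 10 CPM or more in 1 group, not all of which are described. Of the 126 list genes, 108 were matched in the captured table and 123 in the sphere table. Other pseudocounts, filters, scalings, fits and tools were tried, among them DESeq2 1.42.0.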

Additional observations from a re-analysis of the deposited data

Results flagged for a closer look

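A test for a single library far from the rest of its group marked 4 of 58 groups of member values, and chance marks about 1 in 20. In each case the gap to the next library was large relative to the range of the group. Mt1 was 115.7 units in E13 replicate 1, where the next E13 library had 73.7 units. Mt3 was 19446 units in P70 replicate 2, where the next P70 library had 14138 units, and Mt1 and Mt2 were also highest in that library, at 13326 and 3040.2 units. Fth1 was 2678 CPM in MB replicate 2, where the next MB library had 2489 CPM. Slc40a1 was 8.53 units in P70 replicate 6, where the next P70 library had 1.90 units.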

How the results depend on the processing

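No member whose groups did not overlap changed the sign of its difference under the alternatives run. The sign did change for 4 members whose groups overlapped: Fth1 with a range of -0.058 to 0.054 when single libraries were left out and 0.02 after median centring for E13 against E11, and -0.081 to 0.009 and 0.04 for E18 against E13; Cp with -0.178 to 0.138 and 0.14 for P70 against E18; Selenop with -0.007 to 0.197 when single libraries were left out, -0.007 with the replicate block and -0.09 without both E18 replicate 3 and P70 replicate 6 for P70 against E18; and Mt3 with -0.094 to 0.003 for MB against FB. A weight per library gave 0.03 for Fth1 for E18 against E13. Of the counts of calls, only those of E13 against E11 moved by more than 1.5 times: 2406 genes, 22 of them on the lists, passed, against 3811 and 39 with only the libraries of these 2 ages in the fit and 4855 and 43 with a weight per library (1639 rises and 2172 falls, and 2228 and 2627, over all genes); the cause was not tested. Leaving out each library in turn gave 1741 to 2215 genes and 15 to 22 list genes for E13 against E11, 5022 to 5380 and 39 to 43 for E18 against E13, 4395 to 5186 and 35 to 43 for P70 against E18, and 3422 to 3632 and 29 to 32 for MB against FB. With a pseudocount of 0.1 the difference of E18 minus E13 moved to -1.77 for Slc40a1 and 3.06 for Cybrd1. Without E18 replicate 3 and P70 replicate 6, an alternative chosen after seeing the data, 4972 genes and 42 list genes passed for P70 against E18. DESeq2 passed 4300 genes and 36 list genes for MB against FB.

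Deviations of samples with the same replicate number had correlations of -0.148 to 0.2498, the highest for replicate 4 of E18 and E13. No label says that equal numbers pair libraries, so the main fits treated them as unpaired. Such correlations cannot exclude a shared origin. With the replicate block 2632 genes and 23 list genes passed for E13 against E11, 5796 and 48 for E18 against E13, 5004 and 39 for P70 against E18, and 3650 and 33 for MB against FB. Of the list genes selected for naming, 9 of 16, 20 of 20, 21 of 21 and 14 of 19 passed under every alternative in these comparisons. Cp and Cybrd1 gave no value for E13 against E11, nor Slc40a1 for MB against FB under the filter.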
